A study of Mus musculus with 12 samples.

Results

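The 9 genes described here encode the EGLN prolyl hydroxylases (Egln1, Egln2 and Egln3), the oxygen-regulated alpha subunits of the hypoxia-inducible factor HIF (Hif1a and Epas1) and 4 genes that HIF is known to induce (Vegfa, Ndrg1, Ankrd37 and Bnip3). They were taken from the deposited table by symbol, as 9 of its 55891 genes, and each symbol had a single row. All 9 passed the filter of at least 1 TPM in at least 6 libraries. TPM is transcript abundance per gene length, scaled to a library total of 1000000. The genes were selected on their TPM by genotype and litter in these same libraries, so their differences between genotypes and between litters are descriptions and carry no test.

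EGLN enzymes use molecular oxygen to hydroxylate prolines in the HIF alpha subunits, and the hydroxylated subunits are bound by the VHL ubiquitin ligase and degraded. When oxygen is low the alpha subunits persist, pair with Arnt and switch on genes of glycolysis, blood vessel growth and mitochondrial turnover. Egln3 is itself a HIF target in many cell types, so it is both a brake on the pathway and one of its outputs. The small intestinal mucosa is a tissue of steep oxygen gradients, with a low oxygen level near the lumen.

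The libraries came from mucosal scrapings of the ileum of 12 mice at baseline, 1 library each: 6 mice labelled ERBB3-dIE and 6 labelled Erbb3-FF. Erbb3 encodes a receptor tyrosine kinase of the ErbB family. The library names call the ERBB3-dIE mice KO. The labels give no driver, strain, age or treatment and do not spell out the genotype names, so "ERBB3-dIE" and "Erbb3-FF" are used as written. The mice came from 2 litters. Litter B held 3 ERBB3-dIE and 2 Erbb3-FF mice, and litter A held 3 ERBB3-dIE and 4 Erbb3-FF mice.

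Depth per library is unknown, since TPM does not keep it. Epithelial markers were abundant in every library (7 of 7 listed genes found, summed level 7936 to 12050 TPM), whereas 8 endothelial markers summed to 2.78 to 13.1 TPM. The summed level of 8 enterocyte markers was 11130 to 54760 TPM in ERBB3-dIE mice and 19740 to 71450 TPM in Erbb3-FF mice, with 4 of the 8 lower in ERBB3-dIE and none at 0 (median log2 difference −1.01). T cell markers summed to 36.4 to 103 TPM in ERBB3-dIE and 25.8 to 107 TPM in Erbb3-FF mice, with 1 of 5 tested higher. The enterocyte sum was 42250 to 56470 TPM in litter B and 11130 to 21450 TPM in 6 of the 7 litter A mice. The exception was Erbb3-FF mouse 3, a litter A mouse by its label, with 71450 TPM. That library also held 73.5 TPM of 5 B cell markers, against at most 10.3 TPM in the other litter A mice. Its enterocyte and B cell levels, its summed immediate early genes such as Fos (278 TPM), and its Vegfa and Bnip3, were nearer to those of Erbb3-FF mice of litter B. In ERBB3-dIE mice the B cell markers did not follow litter, at 5.05 to 14.9 TPM in litter B and 6.02 to 10.3 TPM in litter A. By contrast, its Ndrg1, Egln1, Ankrd37 and Egln3 (38.4, 13.9, 25.6 and 19.3 TPM) were nearer to those of the other Erbb3-FF mice of litter A. The same held for its summed macrophage and stroma markers (78.1 and 21.3 TPM). Whether its litter label is right could not be checked, and a wrong label would change the litter values and the genotype values within litter A. Results by litter are given with and without it.

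Egln3 (ENSMUSG00000035105), the smallest of the prolyl hydroxylases, was lower in ERBB3-dIE mice than in Erbb3-FF mice, and it was the single gene of the 9 whose ranges did not overlap between genotypes. In ERBB3-dIE mice 1 to 6 it had 1.90, 2.68, 3.12, 6.38, 4.49 and 4.14 TPM, and in Erbb3-FF mice 1 to 6 it had 12.7, 9.80, 19.3, 20.03, 9.31 and 14.7 TPM. Every ERBB3-dIE mouse was thus below every Erbb3-FF mouse, as the plot of the prolyl hydroxylases by genotype shows. The means were 3.79 ± 1.59 TPM in ERBB3-dIE and 14.3 ± 4.60 TPM in Erbb3-FF mice (SD, n = 6 each). The fitted log2 difference was −1.70 (SE 0.21, 95% interval −2.16 to −1.25), which is a level of 30.7% of that in Erbb3-FF mice.

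The difference was present within each litter. In litter B Egln3 averaged 2.57 ± 0.62 TPM in ERBB3-dIE mice (n = 3) and 11.2 ± 2.03 TPM in Erbb3-FF mice (n = 2), a log2 difference of −1.95 (95% interval −2.59 to −1.30). In litter A it averaged 5.00 ± 1.21 TPM in ERBB3-dIE mice (n = 3) and 15.8 ± 4.95 TPM in Erbb3-FF mice (n = 4), a log2 difference of −1.53 (95% interval −2.20 to −0.86). Without Erbb3-FF mouse 3 the difference over both litters was −1.65, and −1.99 is the value in the authors' deposited table. Enterocyte markers moved in the same direction as Egln3 between genotypes, and their part in its difference was not tested. Their summed level was 42250 to 54760 TPM in ERBB3-dIE mice and 55770 and 56470 TPM in Erbb3-FF mice of litter B, and 11130 to 13050 TPM in ERBB3-dIE mice and 19740 to 71450 TPM in Erbb3-FF mice of litter A. Between litters (B minus A) the signs differed, with a median log2 difference of 0.96 for the enterocyte markers and −0.65 for Egln3. In scraped tissue fewer cells of a type and less RNA per cell cannot be told apart.

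**Figure D1:**
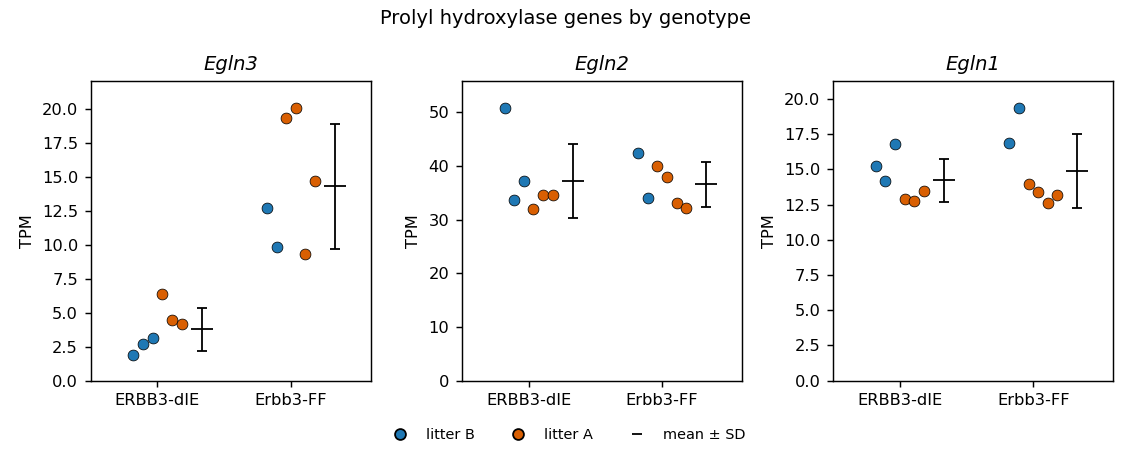
TPM of Egln3, Egln2 and Egln1 in each mouse by genotype, with the mean and SD of the 6 mice beside the points and litter shown by colour. The 6 ERBB3-dIE mice lie between 1.90 and 6.38 TPM for Egln3 and the 6 Erbb3-FF mice between 9.31 and 20.03 TPM, while the genotypes overlap for Egln2 and Egln1.

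The other prolyl hydroxylases had nearly the same level in both genotypes. Egln2 (ENSMUSG00000058709), which encodes PHD1, had 50.7, 33.7, 37.1, 31.9, 34.6 and 34.6 TPM in ERBB3-dIE mice 1 to 6 and 42.5, 34.0, 40.0, 37.9, 33 and 32.2 TPM in Erbb3-FF mice 1 to 6. The highest value, in ERBB3-dIE mouse 1, stood apart from the other 5 of its group, and the remaining ranges overlapped. The log2 difference was −0.02 (95% interval −0.27 to 0.23). Egln1 (ENSMUSG00000031987), which encodes PHD2, the main HIF hydroxylase of most tissues at normal oxygen, had 15.3, 14.1, 16.8, 12.9, 12.8 and 13.5 TPM in ERBB3-dIE mice 1 to 6. It was at 16.9, 19.3, 13.9, 13.4, 12.6 and 13.2 TPM in Erbb3-FF mice 1 to 6. The ranges overlapped, and the log2 difference over both litters was −0.11 (95% interval −0.28 to 0.07). The Egln1 difference was −0.23 (−0.62 to 0.17) in litter B and −0.02 (−0.27 to 0.22) in litter A.

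The make-up of the prolyl hydroxylase transcripts therefore differed between genotypes. Egln3 made up 2.80% to 12.5% of the summed Egln1, Egln2 and Egln3 TPM in ERBB3-dIE mice (mean 7.10 ± 3.35%) and 15.5% to 28.1% in the Erbb3-FF mice (mean 21.5 ± 5.43%; SD, n = 6 each). Egln2 was the most abundant of these genes in every library, with a share of 62.3% to 74.7% in the ERBB3-dIE mice and of 53.1% to 60.1% in the Erbb3-FF mice. The sum itself was 55.1 ± 6.67 TPM in ERBB3-dIE and 65.8 ± 7.50 TPM in Erbb3-FF mice. These shares are ratios within a library, so the scaling of TPM to a fixed total does not enter them.

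Among the alpha subunits, Hif1a (ENSMUSG00000021109), the broadly expressed one, had 5.30, 4.17, 8.38, 15.2, 9.05 and 11.02 TPM in ERBB3-dIE mice 1 to 6. It was at 13.4, 10.9, 9.82, 13.3, 10.5 and 12.3 TPM in Erbb3-FF mice 1 to 6. The 3 litter B ERBB3-dIE mice were the lowest of all 12, and the litter A genotypes overlapped. The log2 difference over both litters was −0.41 (95% interval −0.91 to 0.09). It was −1.02 (−1.79 to −0.24) in litter B and 0.01 (−0.45 to 0.47) in litter A.

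Epas1 (ENSMUSG00000024140), which encodes HIF-2 alpha and in the intestine controls iron absorption genes, had a median of 11.8 TPM in ERBB3-dIE mice (8.67 to 16.9) and of 12.4 TPM in Erbb3-FF mice (10.8 to 15.2). The ranges overlapped almost completely, and the log2 difference over both litters was −0.06 (95% interval −0.41 to 0.29). The Epas1 difference was −0.40 (−0.99 to 0.19) in litter B and 0.18 (−0.21 to 0.56) in litter A. Epas1 is also a gene of endothelium, and the low summed level of endothelial markers is given above. Hif1a made up 41.4 ± 8.78% of the summed Hif1a and Epas1 TPM in ERBB3-dIE mice and 48.3 ± 1.32% in Erbb3-FF mice (SD, n = 6 each). The lowest shares were those of ERBB3-dIE mice 2 and 1 of litter B (25.2% and 37.9%). The other ERBB3-dIE mice had 44.35% to 48.9%, and the Erbb3-FF mice 46.9% to 50.4%.

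The known HIF targets differed from each other in direction. Ndrg1 (ENSMUSG00000005125), a stress- and hypoxia-induced gene of differentiated epithelium, had 88.4, 74.5, 63.4, 50.2, 57.1 and 50.3 TPM in ERBB3-dIE mice 1 to 6. It was at 57.2, 55.7, 38.4, 41.1, 27.6 and 39.1 TPM in Erbb3-FF mice 1 to 6. The genotypes overlapped when litters were pooled, whereas within each litter every ERBB3-dIE mouse was above every Erbb3-FF mouse. That compares only 3 with 2 mice in litter B and 3 with 4 in litter A. The share of all genes that separate in this way was not counted. The means were 64.0 ± 15.0 TPM in ERBB3-dIE and 43.2 ± 11.3 TPM in Erbb3-FF mice, and the fitted log2 difference was 0.48 (SE 0.12, 95% interval 0.23 to 0.73). Ndrg1 was thus higher in ERBB3-dIE mice while Egln3 was lower.

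Vegfa (ENSMUSG00000023951), the vascular growth factor gene, had 48.9 ± 20.1 TPM in ERBB3-dIE and 62.0 ± 26.1 TPM in Erbb3-FF mice, with overlapping ranges and a log2 difference of −0.47 (95% interval −0.92 to −0.02). Without Erbb3-FF mouse 3 that difference was −0.32. Ankrd37 (ENSMUSG00000050914), an ankyrin repeat gene used as a marker of HIF activity, had 23.7 ± 14.2 TPM in ERBB3-dIE and 26.1 ± 6.01 TPM in Erbb3-FF mice (−0.50, 95% interval −1.09 to 0.10). Its values were 21.3, 45.3, 35.1, 20.3, 12.6 and 7.34 TPM in ERBB3-dIE mice 1 to 6, against 33, 31.8, 25.6, 27.5, 17.7 and 20.9 TPM in Erbb3-FF mice 1 to 6, and both the highest and the lowest of all 12 were ERBB3-dIE mice. Its difference was −0.002 in litter B and −0.84 in litter A. Bnip3 (ENSMUSG00000078566), a mitophagy receptor gene, had 9.99 ± 6.36 TPM in ERBB3-dIE and 9.95 ± 5.84 TPM in Erbb3-FF mice (−0.30, 95% interval −0.84 to 0.24; SD, n = 6 each), and −0.11 without Erbb3-FF mouse 3. The plot of genotype differences sets these values side by side.

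**Figure D2:**
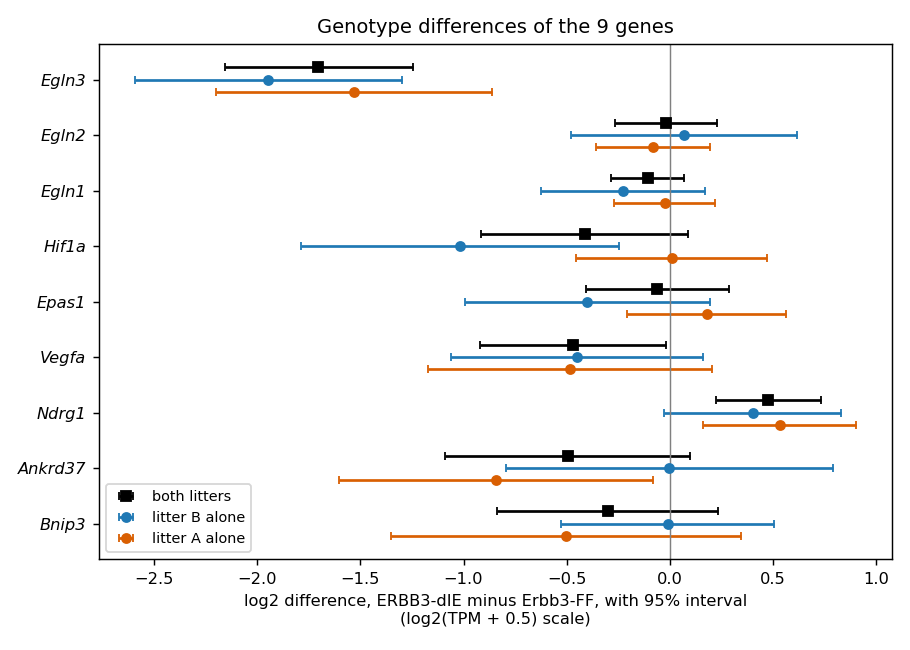
Log2 difference between genotypes (ERBB3-dIE minus Erbb3-FF, log2(TPM + 0.5) scale) with its 95% interval for each of the 9 genes, over both litters (black squares) and within litter B (blue) and litter A (orange). Egln3 lies at −1.70 over both litters, below 0 in each litter, and Ndrg1 at 0.48, while the intervals of Egln1, Egln2, Hif1a, Epas1, Ankrd37 and Bnip3 over both litters include 0.

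Of the 9 genes, Egln3 (lower) and Ndrg1 (higher) lay past an adjusted p of 0.05 for genotype in limma, where 5.36% of the 12605 tested genes did. Egln3 did not overlap between genotypes, as was the case for 2.44% of tested genes (1.43% lower in ERBB3-dIE). Since this comparison was used to select the genes, nothing is read from these counts. In a model that lets the genotype difference vary between litters, 0 of all tested genes (0%) passed in limma, with 1174 at an unadjusted p under 0.05. The widest departure among the 9 relative to its SE was that of Hif1a, whose genotype difference in litter B less its genotype difference in litter A was −1.03 (SE 0.37, 95% interval −1.84 to −0.21).

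Within each genotype the 9 genes formed a gradual order of levels. In ERBB3-dIE mice it ran from Ndrg1 over Vegfa, Egln2, Ankrd37, Egln1, Epas1, Bnip3 and Hif1a to Egln3, the lowest. In Erbb3-FF mice it ran from Vegfa over Ndrg1, Egln2, Ankrd37, Egln1, Egln3, Epas1 and Hif1a to Bnip3. Every pair of neighbours in either order had overlapping TPM ranges.

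Each litter held both genotypes, and 4 HIF targets (Bnip3, Vegfa, Ndrg1 and Ankrd37) had higher means in litter B than in litter A. Bnip3 was at 17.6, 14.5 and 15.1 TPM in the ERBB3-dIE mice and 18.9 and 13.2 TPM in the Erbb3-FF mice of litter B. In litter A it was at 4.45, 4.15 and 4.18 TPM in the ERBB3-dIE mice and 12.3, 3.40, 6.34 and 5.58 TPM in the Erbb3-FF mice. The litters did not overlap, and the highest litter A value was that of Erbb3-FF mouse 3. The log2 difference between litter B and litter A was 1.53 (SE 0.25, 95% interval 0.99 to 2.08), a 2.89-fold higher level in litter B. Without Erbb3-FF mouse 3 it was 1.68, and it was 1.43 to 1.68 over the 12 fits without 1 library.

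Vegfa was at 70.1, 77.3 and 46.6 TPM in the ERBB3-dIE mice and 94.7 and 79.1 TPM in the Erbb3-FF mice of litter B. In litter A it was at 35.7, 31.3 and 32.5 TPM in the ERBB3-dIE mice and 81.0, 33.4, 36.1 and 47.6 TPM in the Erbb3-FF mice. The litters overlapped through Erbb3-FF mouse 3 (81.0 TPM) and, by about 1 TPM, through Erbb3-FF mouse 6 and ERBB3-dIE mouse 3. The Vegfa level was higher in litter B by 0.91 on the log2 scale (SE 0.21, 95% interval 0.45 to 1.37), and by 1.03 without Erbb3-FF mouse 3.

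Ndrg1 was higher in litter B by 0.57 on the log2 scale (SE 0.12, 95% interval 0.31 to 0.82), at 67.8 ± 13.7 TPM in litter B (n = 5) and 43.4 ± 9.85 TPM in litter A (n = 7). Without Erbb3-FF mouse 3 the Ndrg1 difference was 0.58. Egln1 was higher in litter B by 0.32 (SE 0.08, 95% interval 0.14 to 0.50), at 16.5 ± 1.96 TPM in litter B and 13.2 ± 0.45 TPM in litter A, and the litters did not overlap. The Egln1 difference was 0.33 without Erbb3-FF mouse 3, and 0.20 once mitochondrial and ribosomal sequence was taken out of the TPM total.

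Ankrd37 was at 33.3 ± 8.58 TPM in litter B and 18.9 ± 7.07 TPM in litter A, a log2 difference of 0.95 (SE 0.27, 95% interval 0.35 to 1.56), and of 1.00 without Erbb3-FF mouse 3. Egln3 had the opposite sign, −0.65 (SE 0.21, 95% interval −1.11 to −0.19), with 6.03 ± 4.88 TPM in litter B and 11.2 ± 6.80 TPM in litter A, and −0.61 without Erbb3-FF mouse 3. Hif1a, Epas1 and Egln2 had litter differences of −0.46, −0.20 and 0.17, and without Erbb3-FF mouse 3 of −0.52, −0.24 and 0.20. The 95% intervals of these 3 genes included 0.

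Between litters 4 of the 9 genes (Bnip3, Vegfa, Ndrg1 and Egln1, all higher in litter B) lay past an adjusted p of 0.05 in limma, where 7.16% of tested genes were higher, 1.40% lower and 8.55% passed in either direction. With median-of-ratios scaling Egln3, lower in litter B, joined these 4, and without mitochondrial and ribosomal sequence Egln3 was past the threshold and Egln1 was not. Of all litter calls 83.7% were higher in litter B as deposited, 58.1% with median-of-ratios scaling and 59.5% without mitochondrial and ribosomal sequence. Without Erbb3-FF mouse 3, 5 of the 9 genes were past it, Ankrd37 included, where 15.7% of tested genes were higher and 8.54% lower. Without ERBB3-dIE mouse 1, 2 or 4 or Erbb3-FF mouse 1 or 2, Bnip3 alone of the 9 was past it. Counts over all genes moved as widely, to 0.77% higher and 0.0317% lower without ERBB3-dIE mouse 1. Bnip3 and Egln1 did not overlap between litters, as was the case for 2.15% of tested genes (1.90% higher in litter B). Since litter was also used to select the genes, nothing is read from these counts.

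Enterocyte markers also moved with litter, with 4 of 8 higher in litter B and a median log2 difference of 0.96. Smooth muscle markers summed to 47.0 to 94.1 TPM in litter B and 66.7 to 170 TPM in litter A, with 8 of 8 found and 0 of 6 tested past the threshold in limma (median log2 difference −1.53). The part of both marker groups in the litter differences was not tested. The libraries with most smooth muscle signal were ERBB3-dIE mice 4 and 5 (170 and 152 TPM). Without both of them no gene at all passed between litters in limma (2256 at an unadjusted p under 0.05), while the Bnip3 difference was 1.46. Leaving out other mice also cut the litter calls, from 902 higher and 176 lower. Without Erbb3-FF mice 5 and 6 they were 4 and 3. Without ERBB3-dIE mouse 1, with 47.1 TPM of smooth muscle markers, they were 97 and 4. Each of these fits also has fewer mice. Litter cannot be told apart from anything else the mice of a litter shared.

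**Figure D3:**
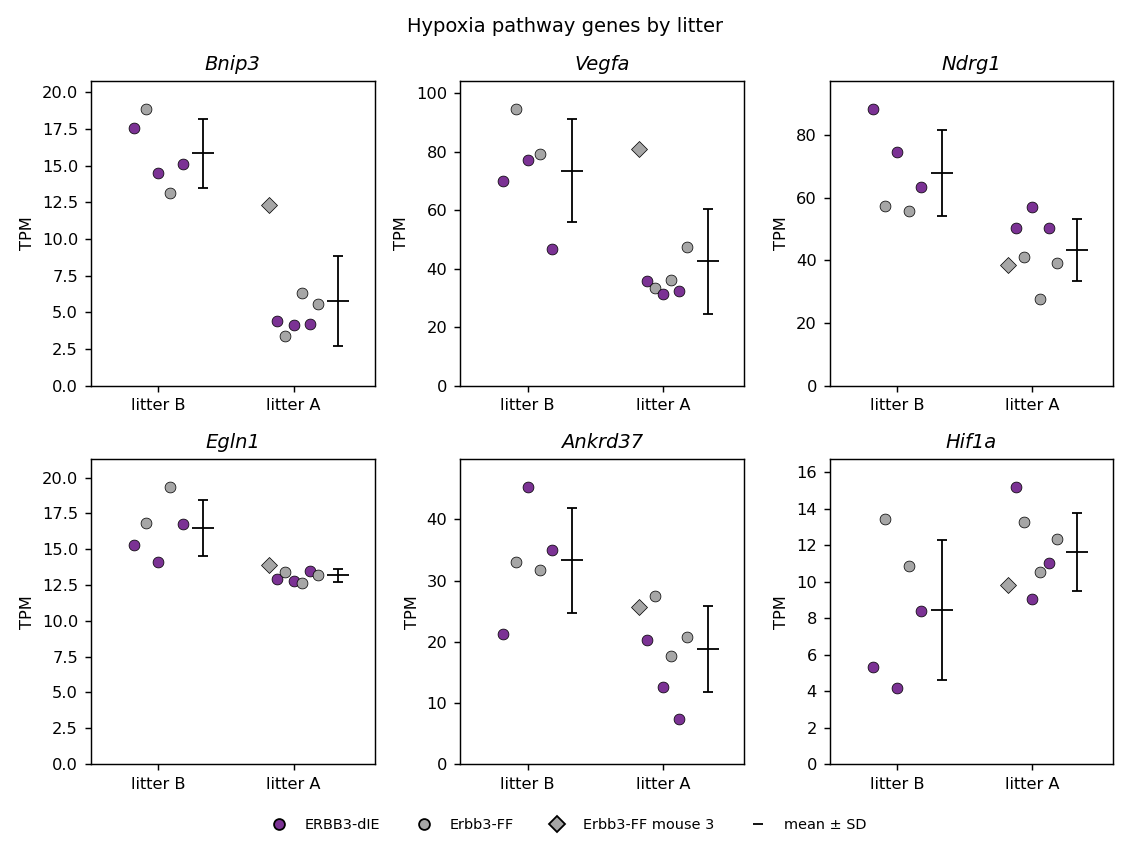
TPM of 6 of the genes in each mouse by litter (litter B, n = 5; litter A, n = 7), with the mean and SD beside the points, genotype shown by colour and Erbb3-FF mouse 3 as a diamond. Bnip3 lies between 13.2 and 18.9 TPM in litter B and between 3.40 and 12.3 TPM in litter A, and the diamond is the highest litter A point for Bnip3, Vegfa and Egln1.

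The promoters of Egln3, Bnip3 and Vegfa are shown because Egln3 had the largest genotype difference of the 9 genes, and Bnip3 and Vegfa differed between litters by 1.53 and 0.91 on the log2 scale. They are the bases before the RefSeq start (build GRCm38.p6), on the gene's own strand, 5′ to 3′. Capitals mark ACGTG or GCGTG on either strand (CACGT or CACGC where the match is on the other strand), the core letters of the HIF response element, where neighbouring matches can overlap. The windows are chr12:54203875-54204124 for Egln3, chr7:138909520-138909756 for Bnip3 and chr17:46032378-46032627 for Vegfa, all on the minus strand.
Egln3: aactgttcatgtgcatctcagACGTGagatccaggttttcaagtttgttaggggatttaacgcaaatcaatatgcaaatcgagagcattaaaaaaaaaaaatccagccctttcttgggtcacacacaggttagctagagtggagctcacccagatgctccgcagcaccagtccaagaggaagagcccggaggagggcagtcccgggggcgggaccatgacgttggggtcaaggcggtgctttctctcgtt
Bnip3: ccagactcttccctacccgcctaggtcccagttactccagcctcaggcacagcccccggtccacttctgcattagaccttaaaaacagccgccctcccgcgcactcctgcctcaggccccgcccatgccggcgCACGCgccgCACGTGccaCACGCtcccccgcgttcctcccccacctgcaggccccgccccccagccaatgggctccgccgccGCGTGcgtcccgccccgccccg
Vegfa: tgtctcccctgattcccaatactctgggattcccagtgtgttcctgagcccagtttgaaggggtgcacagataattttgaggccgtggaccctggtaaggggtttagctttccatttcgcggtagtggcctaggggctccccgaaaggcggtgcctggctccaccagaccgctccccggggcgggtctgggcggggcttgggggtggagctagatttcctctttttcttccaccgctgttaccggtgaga

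The Egln3 window held 1 match, ACGTG, whose first base lay 229 bases before the start. Bnip3 held 5, starting 117, 108, 107, 99 and 35 bases before the start, of which the pair at 108 and 107 is a palindrome read on both strands. Vegfa held 0 in the window shown, which says only that these letters are not in it. Of all 32851 RefSeq windows of 250 bases, 38.6% held at least 1 match. Of the 9 genes, 7 had an entry: Ankrd37 held 4 matches, Hif1a 3, Egln1 2, and Egln2 4 and 1 in 2 windows, while a second Vegfa window held 2. Epas1 and Ndrg1 had no entry. The motif was thus common, and a match is a description of the letters and not of binding.

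The genes whose pattern over the 12 libraries was most like that of Egln3 were ranked among 10533 named genes with a mean of at least 2 TPM. The highest was Pmp22, the peripheral myelin protein gene that the series title names (Pearson r = 0.957 on log2(TPM + 0.5)), followed by Brd9 (0.954), a chromatin remodelling subunit, Lamb3 (0.952), a laminin chain of epithelial basement membrane, Secisbp2l (0.950) and Gpr39 (0.942), a zinc-sensing receptor. Once the mean effects of genotype and litter were removed, their correlations with Egln3 over the 12 libraries were 0.680, 0.759, 0.573, 0.688 and 0.671. The genes share libraries and the same TPM scaling, so these values describe likeness only.

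The rest of the pathway is given from 6 lists of other genes, read against the 1.66% of tested genes that were higher and the 3.70% that were lower in ERBB3-dIE mice. The lists were chosen with earlier results of these data known, so their counts and calls are not independent tests of the pathway. In the list of genes that HIF is known to control in intestinal epithelium, 3 of 10 tested fell and 0 rose in limma (2 positive and 5 negative at an unadjusted p under 0.05; the authors' deposited table has 2 higher and 4 lower), with a list median of −0.25 against 0.00 over all tested genes. Nt5e, an ectoenzyme gene of extracellular adenosine production, fell to 1.13 ± 0.43 TPM in ERBB3-dIE mice, against 9.92 ± 3.38 TPM in Erbb3-FF mice (log2 difference −2.70, SE 0.23, limma adjusted p = 0.000441). Its large change was known when the list was written, so it is not independent evidence.

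Abcb1a, a drug efflux pump of the apical membrane, fell to 110 ± 20.7 TPM in ERBB3-dIE mice, against 216 ± 63.8 TPM in Erbb3-FF mice (log2 difference −1.004, SE 0.17, limma adjusted p = 0.0104). No ERBB3-dIE mouse (76.2 to 140 TPM) reached the lowest Erbb3-FF mouse (157 TPM). Abcb1a has a close paralog, Abcb1b, with which reads can be shared. Heph, the iron oxidase of enterocytes, fell by 0.45 on the log2 scale (limma adjusted p = 0.0445), a call that held in 1 of the 12 fits without 1 library, the one without Erbb3-FF mouse 5 (adjusted p up to 0.106 in the others). The calls of Nt5e and Abcb1a held in all 12. The iron importer gene Slc11a2 had −0.29 and the iron exporter gene Slc40a1 0.26 (limma adjusted p = 0.0713 and 0.436). Tff3, a goblet cell peptide gene, had 0.48 (limma adjusted p = 0.173), at 7948 ± 3875 TPM in ERBB3-dIE and 4820 ± 1317 TPM in Erbb3-FF mice.

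Of 18 glycolysis genes induced by HIF, 2 fell and 0 rose in limma (0 positive and 6 negative at an unadjusted p under 0.05; 0 higher and 5 lower in the authors' deposited table), with a median of −0.22. Pfkp, a phosphofructokinase subunit, fell to 108 ± 15.3 TPM in ERBB3-dIE mice, against 162 ± 37.9 TPM in Erbb3-FF mice (−0.61, SE 0.14, limma adjusted p = 0.0319). Its call was lost without ERBB3-dIE mouse 2, 3 or 5 or Erbb3-FF mouse 1, 2, 4 or 6 (adjusted p up to 0.0859). Ldha, the lactate dehydrogenase gene and a standard readout of HIF activity, fell to 684 ± 68.1 TPM in ERBB3-dIE mice, against 891 ± 94.1 TPM in Erbb3-FF mice (−0.39, SE 0.10, limma adjusted p = 0.0434). The ERBB3-dIE mice (569 to 752 TPM) and the Erbb3-FF mice (754 to 1003 TPM) did not overlap. Processed copies of Ldha exist in the mouse genome, and reads shared with them could be split by the authors' quantification. The Ldha call held only without ERBB3-dIE mouse 2 or Erbb3-FF mouse 5 among the 12 fits without 1 library (adjusted p up to 0.114). The glucose transporter gene Slc2a1 had 0.50 and the hexokinase gene Hk2 0.47 (limma adjusted p = 0.257 and 0.268). They were among 5 genes of this list with a positive value, against 13 with a negative one.

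Of 19 tested genes among 26 other HIF targets, 1 fell and 0 rose in limma (0 positive and 5 negative at an unadjusted p under 0.05; 1 higher and 4 lower in the authors' deposited table), with a median of −0.18. Angptl4, an inhibitor of lipoprotein lipase that is also controlled by fatty acid receptors, fell to 23.2 ± 19.1 TPM in ERBB3-dIE mice, against 37.3 ± 23.2 TPM in Erbb3-FF mice (−1.18, SE 0.25, limma adjusted p = 0.0233). Its call was lost without ERBB3-dIE mouse 4 or 5 or Erbb3-FF mouse 2 (adjusted p up to 0.0641). The clock-linked repressor gene Bhlhe40 had −0.83, the mitophagy gene Bnip3l −0.45 and Car9, a carbonic anhydrase gene used as a hypoxia marker, 0.15 (limma adjusted p = 0.0508, 0.0703 and 0.62). With median-of-ratios scaling 3 genes of this list were lower, and without mitochondrial and ribosomal sequence 4.

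The remaining lists had no call in limma with the filter used here. Of the HIF machinery 13 of 16 genes were tested, with 1 positive and 1 negative at an unadjusted p under 0.05 and a median of −0.08 (1 higher and 2 lower in the authors' deposited table). The gene with the smallest p was Cited2, a HIF-induced competitor for the coactivators of HIF (0.28, limma adjusted p = 0.13). Arnt, the partner of the alpha subunits, had −0.30 and Vhl −0.52 (limma adjusted p = 0.137 and 0.26). Arnt2, a relative of Arnt, was below that filter, at 0.24 ± 0.06 TPM in ERBB3-dIE and 1.22 ± 0.48 TPM in Erbb3-FF mice. Its ranges did not overlap (0.17 to 0.35 and 0.82 to 2.08 TPM), as for 2.44% of the tested genes, of which it is not one. A filter of 0.5 TPM in 3 libraries gave −1.18 (SE 0.19). Arnt2 passes that filter only through the Erbb3-FF mice, where it is higher, so no test is drawn from it. With any value above 0 the limma adjusted p was 0.0163, for a gene near the floor. Of the NDRG family and mitophagy genes 8 of 10 were tested (1 positive at an unadjusted p under 0.05, 0 in the authors' deposited table), and the relative Ndrg2 had 0.64 (limma adjusted p = 0.226). Of the VEGF family and receptors only Vegfb (0.33, limma adjusted p = 0.457) and Vegfc passed the filter, with 0 at an unadjusted p under 0.05 and 0 in the authors' deposited table. The receptor genes Kdr and Flt1 averaged 0.51 and 0.30 TPM in ERBB3-dIE mice and 0.39 and 0.29 TPM in Erbb3-FF mice.

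Between litters, 9 of the 70 tested list genes were higher and 2 lower in litter B in limma, against the 7.16% and 1.40% of all tested genes given above. Higher were Angptl4 (1.76), Plod2 (0.96), Tff3 (0.89), Pink1 (0.88), Pfkfb4 (0.83), Muc3 (0.59), Kdm4b (0.55), Cited2 (0.45) and Map1lc3b (0.30). Lower were Hk2 (−1.05), which catalyses the first step of glycolysis, and the iron exporter gene Slc40a1 (−0.84). These 11 log2 differences had limma adjusted p-values of 0.0111 (Angptl4) to 0.0498 (Muc3), and all 70 genes were measured in 5 litter B and 7 litter A mice. With only litter A and litter B to compare, these p-values measure the spread between mice and not between litters. The glycolysis genes had a median litter difference of −0.01, against 0.05 over all tested genes. With median-of-ratios scaling 5 list genes were higher and 4 lower in litter B, and without Erbb3-FF mouse 3 14 were higher and 10 lower. Without ERBB3-dIE mouse 1 or mouse 4, 1 was higher and 0 lower.

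**Figure D4:**
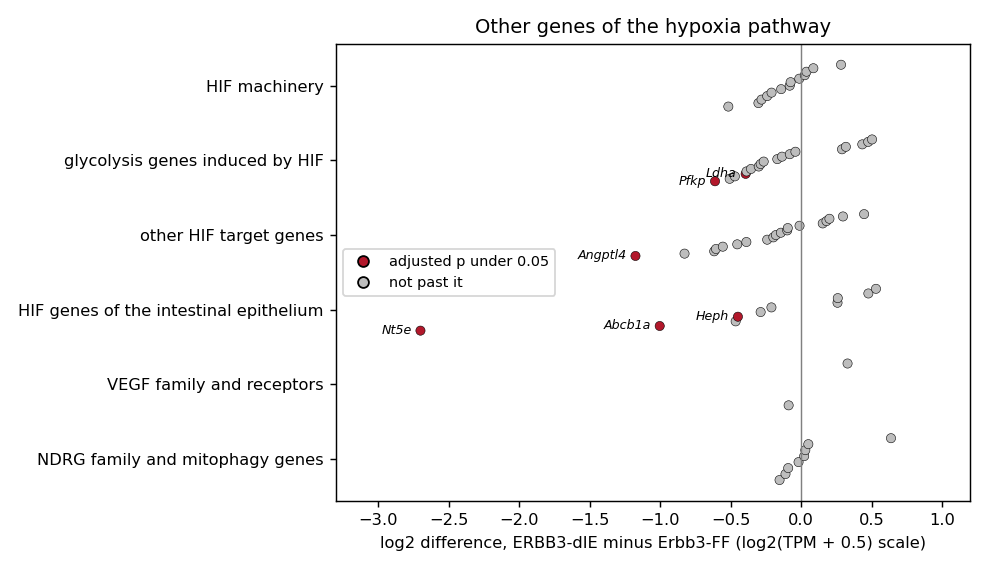
Log2 difference between genotypes (ERBB3-dIE minus Erbb3-FF, log2(TPM + 0.5) scale) of each tested gene in the 6 lists of other pathway genes, with genes past an adjusted p of 0.05 in red and named. The 6 named genes, from Nt5e at −2.70 to Ldha at −0.39, all lie below 0.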

How the data were processed

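Mucosal scrapings of the ileum of 12 mice, 1 library each, were sequenced. Per the labels' protocols, libraries were stranded mRNA libraries read from a single end for 75 bases. Salmon 1.10.0, CASAVA, DESeq2 and the build GRCm39 are named, per the submitters' processing notes, and no annotation release, filter or design is. The authors deposited TPM per gene and library, and each library's TPM sum to 1000000. The deposited table also holds, per the file headers, the authors' mean normalized count (a signal over all libraries), log2 fold change and its standard error, Wald score, p-value and adjusted p-value.

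TPM are not counts, so log2 values were tested for the 12605 genes that reached 1 TPM in 6 or more libraries, on log2(TPM + 0.5) with limma 3.58.1 in R 4.3.3 (eBayes with a variance trend), with litter and genotype as additive terms and Benjamini-Hochberg adjustment over all tested genes. The pseudocount understates changes of low genes. A second model added their interaction. Whether mice of a litter were housed or sampled separately is not given, so p-values measure the spread between these mice. The 9 genes and the 6 lists were chosen with earlier results of these data known. Litter was fitted for all genes, and for the 9 genes it is given without p-values. From each list up to 4 genes past the threshold, or else the gene with the smallest p, were to be named; further members are named as examples, chosen after their values were seen. Genes most like Egln3 were the 5 highest by Pearson correlation. Where a symbol had several identifiers (Aldoa), the most abundant was used. Steps were tested on simulated data. Promoter windows came from RefSeq (GRCm38.p6), cut where an annotated exon began. Figures used matplotlib 3.10.9.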

Additional observations from a re-analysis of the deposited data

Results flagged for a closer look

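Egln2 in ERBB3-dIE mouse 1, at 50.7 TPM, stood apart from the other 5 ERBB3-dIE mice, which lay between 31.9 and 37.1 TPM. It was the single such value among 18 groups examined (9 genes in 2 genotypes), and chance gives about 1 in 20 groups. The same mouse had the lowest Egln3 (1.90 TPM) and the highest Ndrg1 (88.4 TPM) of all 12.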

How the results depend on the processing

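The Egln3 genotype difference was negative under all 26 alternatives (−1.99 to −1.53; −1.84 to −1.61 without 1 library) and that of Ndrg1 positive under all 26 (0.40 to 0.59). No difference of the 9 genes past the threshold changed sign. The Bnip3 litter difference was positive under all 24 alternatives (1.27 to 1.76) and that of Egln3 negative under all 24 (−0.94 to −0.43). Removing mitochondrial and ribosomal sequence shifted the median litter difference of all genes by −0.12. No label says that a mouse number shared between genotypes marks a pair. Correlations of deviations were positive for all 6 numbers (0.0739 to 0.357, over 0.1 in 5), and 4 of 12 mice correlated best with their own number. These values do not decide whether the numbers are pairs. By the labels, number 3 joins an ERBB3-dIE mouse of litter B with an Erbb3-FF mouse of litter A. The numbers thus cannot all mark littermates by the labels, and they were not taken as pairs. With mouse number as a block the Egln3 difference was −1.81, and the block gave 217 higher and 538 lower genes between genotypes (209 and 467 without it). In the glycolysis list 1 gene was then lower, in the other HIF targets 2 were lower, and in the intestinal list 1 was higher and 4 were lower.

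Counts over all genes moved more. Genes higher in ERBB3-dIE mice were 105 without a filter on low values, 83 without Erbb3-FF mice 5 and 6, 43 without ERBB3-dIE mice 4 and 5, 87 without the litter term, 4 in litter A, 6 in litter B, 786 in the authors' deposited test and 95 to 213 without 1 library. Genes lower were 245 without the filter, 825 without mitochondrial and ribosomal sequence, 65 without ERBB3-dIE mice 4 and 5, 156 without the litter term, 2 in litter A, 9 in litter B, 1164 in the authors' deposited test and 190 to 621 without 1 library. Genes higher in litter B (902) were 219 without the filter, 447 with median-of-ratios scaling, 421 without mitochondrial and ribosomal sequence, 4 without Erbb3-FF mice 5 and 6, 0 without ERBB3-dIE mice 4 and 5, 261 without the genotype term, 500 in ERBB3-dIE and 3 in Erbb3-FF mice alone, and 97 to 1982 without 1 library, the highest without Erbb3-FF mouse 3. Genes lower in litter B (176) were, in the same order, 26, 323, 287, 3, 0, 36, 265 and 1, and 4 to 1077 without 1 library. The cause was not tested, and some settings also leave fewer mice. The unknown depth of the libraries limits what can be said of genes near the filter.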
